A study of Mus musculus with 7 samples.

Results

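The cytosolic ribosomal protein genes were taken by symbol: every gene whose name is Rps or Rpl followed by a number, with the paralog endings a, x and l, together with Rplp0, Rplp1, Rplp2 and Rpsa. The rule found 81 genes among the 31253 in the count matrices, 31 of the small subunit (Rpsa included) and 50 of the large subunit. One of them, Rpl10l, had no count in any barcode. Genes that encode or resemble ribosomal proteins under other names, such as Rps3a1, Rack1, Fau, Rpl22l1 and Rpl7l1, fell outside the rule and were kept as a separate list.

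The counts came from single-cell RNA libraries of mouse aorta made on the BD Rhapsody platform, which captures cells in microwells and counts each mRNA molecule once by its unique molecular identifier (UMI). The 4 knockout libraries were from Slc38a2△EC mice, in which the labels place the deletion of Slc38a2 in endothelial cells, and the 3 control libraries were from Slc38a2flox/flox mice. All 7 came from mice that had been fed high-salt chow for 3 weeks, so no library stood for a normal diet. The labels name neither the Cre driver nor the exons removed, give no age, and do not say whether each library is 1 animal, so the p-values below measure the spread between libraries.

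A ribosome joins a small subunit, which decodes the mRNA, to a large subunit, which forms the peptide bonds, and nearly every ribosomal protein is present once in each particle. The mRNAs of these proteins are abundant, short and cytoplasmic, and most begin with a C followed by an unbroken run of pyrimidines, the 5′ terminal oligopyrimidine (TOP) tract, through which mTORC1 sets how strongly they are translated. Slc38a2 encodes SNAT2, a sodium-coupled transporter of small neutral amino acids, and amino acid supply is one of the inputs to mTORC1. A few ribosomal proteins have a paralog gene (Rps27l, Rpl36al, Rpl39l, Rpl3l, Rpl10l) that is used in particular tissues or states.

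Start sites are shown for some of the members named below, because the TOP tract is the sequence feature the family is known for. This choice does not stand for the family. Rpsa, Rplp0 and Rpl10, which are not printed, have a purine at the annotated start. Each line gives 28 bases of the strand that is transcribed into mRNA, 14 before the RefSeq start site and 14 from it on (RefSeq, GRCm38.p6). Capitals mark the pyrimidines that run unbroken from the start site, and a window without capitals has a purine at the annotated start.
Rps27, chr3:90213635-90213662, minus strand: tttccgctttcgctCCTTTCCggcggtg
Rps27l, chr9:66946072-66946099, plus strand: cactcctccccgccgcctctatcccgga
Rps15a, chr7:118116134-118116161, minus strand: tctctttctgccatCTTCCCTCgccggt
Rpl35a, chr16:33056468-33056495, plus strand: cggggcttgccttcCTCTTTCCgccatc
Rps21, chr2:180257365-180257392, plus strand: accgaggacccgccCTCCTgcccaatag
Rplp2, chr7:141447637-141447664, plus strand: gcgtcagcgtcttcCTTTCgccgccgga
Rpl36a, chrX:134585640-134585667, plus strand: tgcacccaggcaccgcctataaacttcc
Rpl36al, chr12:69184054-69184081, minus strand: attcccgtcgctcaggttcagttccgac
Rpl3l, chr17:24727812-24727839, plus strand: agtgttctagctctgtcatttgacctct
Rps3, chr7:99483696-99483723, minus strand: ttgcaagggtcgccgcgctgcgcggcgt
Rps19, chr7:24884578-24884605, plus strand: ccgaaatctcgcgagactcgacgcccga
Rps27, Rps15a, Rpl35a, Rps21 and Rplp2 carry the tract at an annotated start, while the windows of Rps27l, Rpl36a, Rpl36al and Rpl3l start with a purine at the annotated position. For Rps27l a run of pyrimidines led by C begins within 5 bases of that position. RefSeq lists further starts for some of these genes: a second one for Rps27l begins with a purine too, and of the 3 listed for Rpl35a only the one printed begins a run of this length. An annotated start can lie several bases from the start in use, so a window without capitals says only that these letters are absent at that position.

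Of the 81 members, 61 were matched to 73 promoter entries. A C at the start followed by pyrimidines, at least 5 in a row with the C, was found in 17.8% of them (13 entries) and in 2.51% of all 32851 entries. When the tract could begin up to 5 bases away from the annotated start, the shares were 41.1% and 18.3%. Between 250 bases before the start and 50 from it on, CCGGAAG, the core bound by ETS-family transcription factors, was found on either strand in 35.6% of member entries and in 8.86% of all entries. The YY1-type core AAGATGG, counted the same way on both strands, was found in 15.1% of member entries and in 6.34% of all entries. For the GC box, GGGCGG on either strand, the shares were 58.9% of member entries and 35.7% of all entries. The TATA box was searched as TATAAA on both strands and was found in 8.22% of member entries and in 13.6% of all entries. None of these motifs contains another. The genes themselves are compact and scattered: in the GENCODE vM21 annotation (GRCm38) the members have a median span of 3289 bp, against 12727 bp over all annotated genes in the files, and lie on 19 chromosomes.

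The 7 libraries held 76359 barcodes and 370800480 UMIs, with 6167 to 13792 barcodes and 22646246 to 73102988 UMIs each. Of these barcodes 67477 passed the filters (at least 200 genes, at most 25% mitochondrial UMIs, no doublet call), and 60774 met the marker gate of 1 cell class. Smooth muscle and fibroblast gates took 89.3% of gated barcodes. The labels call the cells goblet cells, but no kept barcode had 3 or more of 7 goblet cell markers, so classes are called here by their vascular and immune markers. Knockout library 4 and flox library 3 stood apart: they held the fewest barcodes (8014 and 6167), the fewest UMIs (32941316 and 22646246) and the highest ribosomal share of their genotype, and results that rest on them are given with and without them. Of 73474 distinct barcode sequences, 2826 (3.85%) occurred in more than 1 library.

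Slc38a2 itself was measured first, as the gene that the labels name. In the endothelial gate it stood at 224, 293, 352 and 316 CPM (the gene's UMIs relative to the library's total UMIs, in the usual CPM unit and scaled by TMM, edgeR's composition factor) in knockout libraries 1 to 4, against 453, 436 and 342 CPM in flox libraries 1 to 3. Knockout library 3 lay above flox library 3, so the groups overlapped. The log2 fold change was -0.46 (SE 0.21, edgeR adjusted p = 0.735). In the other gates it was -0.42 in macrophages (SE 0.20, edgeR adjusted p = 0.668), -0.39 in fibroblasts (SE 0.27, edgeR adjusted p = 0.949) and -0.10 in smooth muscle (SE 0.19, edgeR adjusted p = 0.973). The lower level was thus not particular to the endothelial gate. Reads outside a deleted exon would still be counted, so this level does not measure how complete the deletion was.

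Ribosomal protein genes supplied 4.69% of all UMIs in the study (17397737 UMIs) and differed in share between cell classes, while the genotypes overlapped. In the endothelial gate (1269 barcodes, 51 to 466 per library) the share was 6.87, 7.15, 7.16 and 9.90% in knockout libraries 1 to 4, against 5.34, 5.91 and 8.25% in flox libraries 1 to 3. In smooth muscle (19933 barcodes) it was 5.34, 5.23, 4.90 and 6.21% in knockout libraries, against 4.47, 4.43 and 6.47% in flox libraries. Fibroblasts (34320 barcodes) had 4.73, 4.78, 4.67 and 6.01% in knockout libraries, against 3.81, 3.93 and 5.46% in flox libraries, and macrophages (3959 barcodes) had 4.44, 4.48, 4.20 and 5.43%, against 3.66, 4.02 and 4.94%. In all 4 classes flox library 3 lay above at least 3 of the knockout libraries.

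**Figure D1:**
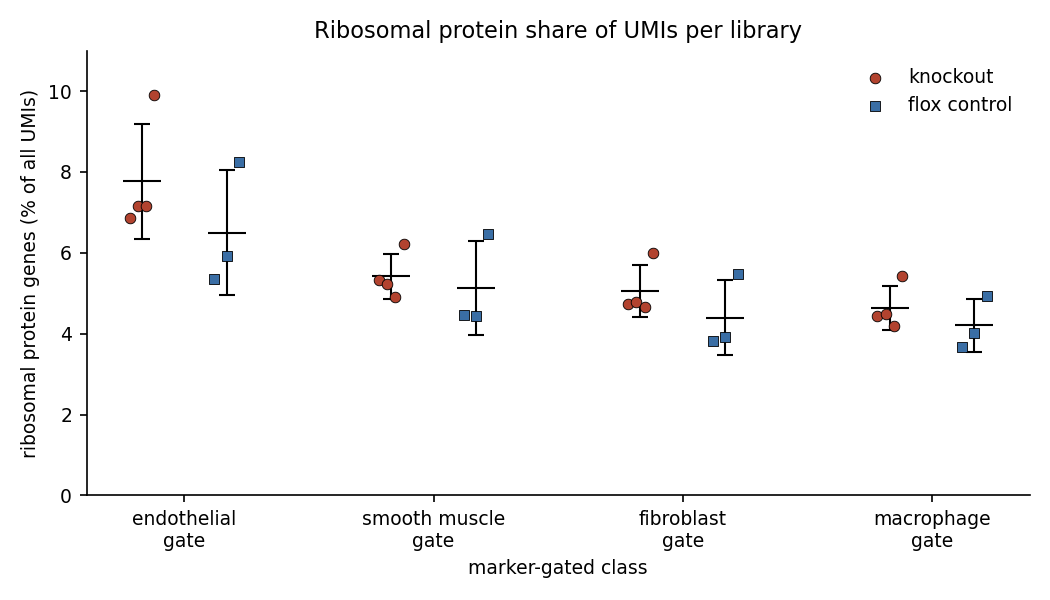
Ribosomal protein share of UMIs (percent, vertical axis) in endothelial, smooth muscle, fibroblast and macrophage gates, 1 point per library, knockout left of flox in each class, with the mean and SD as a line and bar. Endothelial sums reach 9.90% in knockout library 4 and are the highest of the 4 classes in every library, and the knockout and flox points overlap in each class.

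Among these 4 classes, summed over all kept barcodes, endothelium had the highest share in each of the 7 libraries. Within bins of mitochondrial share, given below, this did not hold from 2 to 5% in knockout libraries 2 and 3. The endothelial share exceeded the smooth muscle share by 1.93 ± 0.883 percentage points (mean and SD over 7 libraries), the fibroblast share by 2.46 ± 0.746 points and the macrophage share by 2.77 ± 0.937 points. Smooth muscle exceeded fibroblasts by 0.523 ± 0.275 points and macrophages by 0.840 ± 0.340 points. Over non-mitochondrial UMIs alone, these 2 differences were 1.24 and 1.54 points. These 5 differences had the same sign in 7 of 7 libraries (exact two-sided sign-flip permutation test, p = 0.0156, the smallest 7 libraries can give, adjusted over 6 pairs 0.0188). Fibroblasts exceeded macrophages by 0.317 ± 0.234 points, in 6 of 7 libraries (exact p = 0.0312, adjusted 0.0312), a call that was lost on leaving out any 1 library other than flox library 2. Without knockout library 4 and flox library 3, the 6 differences kept their signs at 0.225 to 2.33 points, but 5 libraries cannot give an exact p below 0.0625. Endothelial barcodes were the shallowest of the 4 classes: their median of 3048 UMIs lay below the 4311 of smooth muscle, 5703 of fibroblasts and 4550 of macrophages. The part of depth in these differences was not tested.

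Rarer classes spanned a far wider range, given for libraries with at least 20 barcodes of the class and without a test. B cells (2 libraries) averaged 10.7%, T cells (6 libraries) 8.75 ± 1.08% and monocytes (2 libraries) 7.15%. Mast cells (5 libraries) averaged 2.57 ± 0.421%, the 1 Schwann cell sum 1.97%, the 2 neutrophil sums 1.31 and 1.70%, and erythroid barcodes (3 libraries) 0.874%. The B cell, monocyte and neutrophil sums came from knockout libraries only, in each case library 4 and 1 other. Without library 4, B cells had 10.4% (knockout library 2), and monocytes 6.63% and neutrophils 1.31% (knockout library 1). Erythroid barcodes then had 0.399% (knockout library 2) and 0.816% (flox library 1). Lymphocytes thus held the highest values and erythroid barcodes and neutrophils the lowest. The 18 adipocyte barcodes gave no library with 20.

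Single barcodes of a class also differed in share, most widely in endothelium among the 4 main classes. Across endothelial barcodes the share had a 10th percentile of 3.07%, a median of 6.63% and a 90th percentile of 12.5%. Smooth muscle spanned 3.07 to 7.16% around 4.91%, fibroblasts 2.90 to 6.89% around 4.47%, and macrophages 2.80 to 6.25% around 4.21%, at the same percentiles. Barcodes of a library are not replicates, so these spreads carry no test.

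Part of that spread went with the mitochondrial share, a common measure of barcode quality. In smooth muscle, ribosomal protein genes supplied 0.766% of the non-mitochondrial UMIs of barcodes under 1% mitochondrial, 1.01% from 1 to 2%, 2.80% from 2 to 5%, 5.23% from 5 to 10%, 5.90% from 10 to 15%, 6.62% from 15 to 20% and 7.25% from 20 to 25% (means over libraries with at least 20 barcodes in the bin). This mean was higher in each successive bin, but the bins hold different libraries: 3 up to 2%, 4 from 2 to 5% and 7 above that. In knockout library 3 the share was 1.21% under 1% and 1.15% from 1 to 2%. Endothelial barcodes had 4.96% from 2 to 5% (5 libraries), 7.94% from 5 to 10% (7 libraries) and 9.92% from 10 to 15% (4 libraries). In the next 2 bins only knockout library 4 had enough endothelial barcodes, at 14.7 and 16.9%. In fibroblasts the bins from 1 to 10% differed little (5.01, 4.90 and 5.16%), with 5.78 and 6.33% in the next 2 bins, and macrophages had 4.59, 4.81 and 5.76% from 2 to 15%. From 2 to 5%, endothelium lay below fibroblasts in knockout libraries 2 (4.51 against 4.90%) and 3 (4.56 against 4.89%). It lay above fibroblasts in knockout library 4 (6.24 against 6.20%) and flox libraries 1 (5.03 against 3.92%) and 2 (4.46 against 4.04%). From 5 to 10% endothelium lay above fibroblasts in each library. Mitochondrial shares averaged 8.29% in knockout and 6.63% in flox endothelial sums, and 16.1% and 14.1% in smooth muscle. In the same order they averaged 4.99% and 4.49% in fibroblasts, and 5.89% and 4.97% in macrophages. The genotypes overlapped in each class, where flox library 3 lay above knockout library 1 (8.48 against 7.38% in endothelium). The part of the mitochondrial share in the ribosomal share was not tested.

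**Figure D2:**
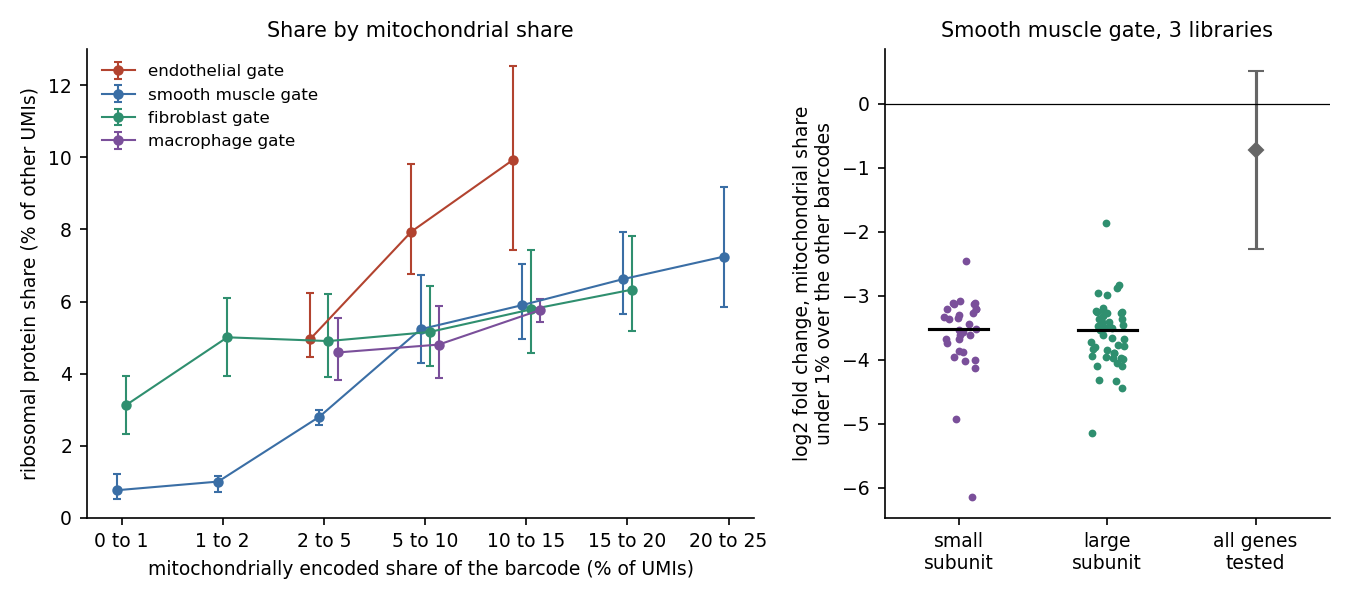
Ribosomal protein share of non-mitochondrial UMIs (percent, vertical axis) by bin of mitochondrial share (horizontal axis), 1 line per class, with points for the mean over libraries and bars to the lowest and highest library (left panel), and log2 fold change of nucleus-like over other barcodes of the smooth muscle gate, 1 point per member by subunit with its median, and all genes as a diamond with quartiles (right panel). The smooth muscle mean climbs through its bins, from 0.766% in the lowest to 7.25% in the highest, while the fibroblast mean stays near 5% from 1 to 10% mitochondrial.

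The genotype comparison asked whether deleting the transporter in endothelium went with a different ribosomal protein output in endothelial or neighbouring cells. The endothelial share averaged 7.77 ± 1.42% in knockout libraries and 6.50 ± 1.54% in flox libraries (SD, n = 4 and 3), a difference of 1.27 percentage points (exact two-sided permutation test over the 35 assignments of libraries, p = 0.371, adjusted over 4 classes 0.495). The interval of differences that the exact test does not reject at 95% ran from -1.37 to 6.23 points. Smooth muscle averaged 5.42 ± 0.559% in knockout and 5.12 ± 1.17% in flox libraries (exact p = 0.6), fibroblasts 5.05 ± 0.641% and 4.40 ± 0.923% (exact p = 0.257), and macrophages 4.64 ± 0.545% and 4.21 ± 0.661% (exact p = 0.371). The intervals ran from -1.56 to 2.14, from -0.79 to 2.88 and from -0.74 to 2.28 points. Each interval holds 0 and also rises of more than 2 points, which these libraries could not tell apart. The endothelial difference was 0.558 points without knockout library 4, 0.689 points without flox library 1 and 2.14 points without flox library 3. Without those same libraries the fibroblast difference was 0.328, 0.353 and 1.18 points and the macrophage difference 0.163, 0.157 and 0.796 points, with 0.41 points in fibroblasts without flox library 2. The smallest p the design allows is 0.0286. The endothelial difference exceeded the smooth muscle difference by 0.969 points (exact p = 0.143), or 0.524 points without knockout library 4.

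Gene by gene, edgeR's quasi-likelihood test called no member between the genotypes at an adjusted p of 0.05 in any of the 4 classes, and called 0.0% of all genes tested in each (8202 endothelial, 12957 smooth muscle, 15108 fibroblast and 10277 macrophage genes). DESeq2 called 0 members as well. At an unadjusted p under 0.05, edgeR had 1 of 78 endothelial, 0 of 78 smooth muscle, 1 of 79 fibroblast and 1 of 78 macrophage members, against 6.33, 5.13, 4.51 and 7.66% of all genes, and DESeq2 had 5, 0, 2 and 1. The fold changes nevertheless leaned one way. They were above 0 for 76 of 78 endothelial members, 72 of 78 smooth muscle, 75 of 79 fibroblast and 64 of 78 macrophage members, where 49.5, 49.2, 48.5 and 49.3% of all genes were. Median log2 fold changes were 0.33, 0.14, 0.21 and 0.12 for the members, against -0.01, -0.00, -0.01 and -0.00 for all genes. Members of a library share its depth and scaling, so these counts are not independent observations.

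The lean was not carried by 1 subunit. In endothelium all 31 small-subunit members had a positive log2 fold change (median 0.34), and so did 45 of 47 large-subunit members (median 0.31). The 3 stalk genes, whose products recruit the elongation factors, had a median of 0.26. The members other than Rpl3l, Rpl39l and Rpl10l passed the filter on low counts in every class, and Rpl3l passed it in fibroblasts.

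The highest library was nearly always 1 of the same pair. Knockout library 4 or flox library 3 had the highest level for 78 of 78 members in endothelium, 77 of 78 in smooth muscle, 73 of 79 in fibroblasts and 75 of 78 in macrophages, against 34.2, 40.0, 38.4 and 39.5% of all genes. These are the 2 libraries with the fewest barcodes and UMIs. With both left out (3 knockout against 2 flox libraries, an alternative chosen after seeing the data), the member medians were 0.39, 0.36, 0.40 and 0.25, still no member passed, and 20, 56, 51 and 18 members had an unadjusted p under 0.05, in the order endothelial, smooth muscle, fibroblast and macrophage. Over all genes the same setting gave an unadjusted p under 0.05 to 590 of 8486, 2093 of 13190, 1441 of 15510 and 954 of 11000, against 519, 665, 682 and 787 with all 7 libraries.

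**Figure D3:**
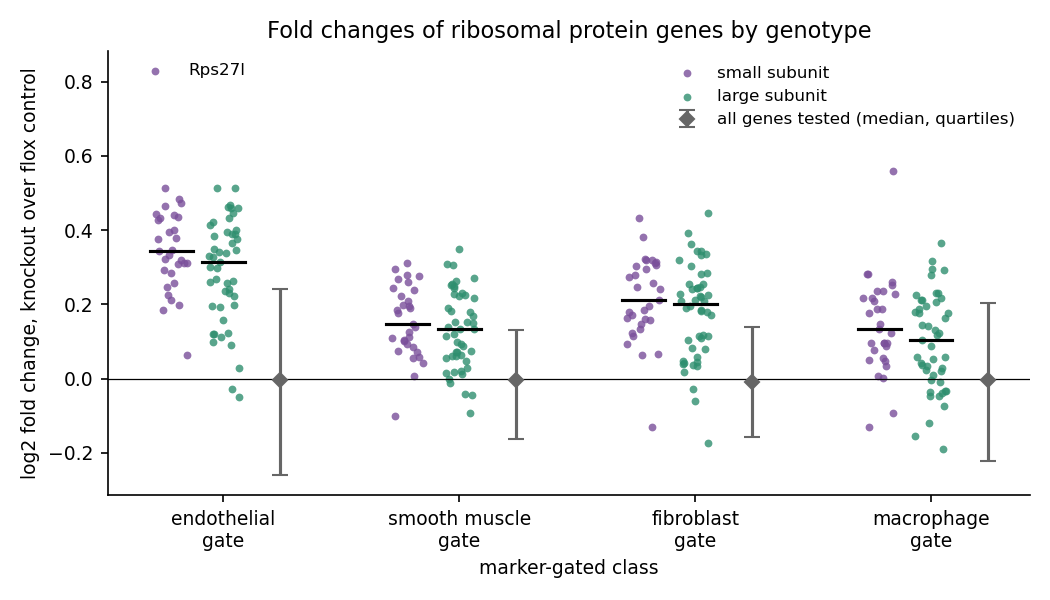
Log2 fold change, knockout over flox (vertical axis), of every tested member in endothelial, smooth muscle, fibroblast and macrophage sums, 1 point per gene by subunit, with a black line at the subunit median and a diamond with quartiles for all genes. The endothelial medians of 0.34 (small subunit) and 0.31 (large subunit) lie above the all-gene median of -0.01, and no point passed the test.

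Rps27l, the p53-inducible paralog of the small-subunit protein Rps27, had the smallest p of the members in endothelium, fibroblasts and macrophages. Endothelial sums gave 152, 149, 143 and 153 CPM in knockout libraries 1 to 4, against 57.5, 70.5 and 146 CPM in flox libraries 1 to 3. The groups overlapped only through flox library 3, which lay above knockout library 3, and the log2 fold change was 0.83 (SE 0.28, edgeR adjusted p = 0.735). Macrophages gave 106, 82.8, 78.6 and 79.0 CPM in knockout libraries, against 53.3, 58.9 and 66.5 CPM in flox libraries. Here the groups did not overlap (log2 fold change 0.56, SE 0.17, edgeR adjusted p = 0.592), which held for 1 of 78 members and 8.84% of all macrophage genes. Fibroblasts gave 112, 96.1, 90.5 and 93.8 CPM against 55.3, 64.7 and 98.5 CPM (0.43, SE 0.19, edgeR adjusted p = 0.949), and smooth muscle 150, 139, 124 and 159 CPM against 84.7, 99.7 and 161 CPM (0.31, SE 0.21, edgeR adjusted p = 0.898). In each class flox libraries 1 and 2 were the lowest of the 7. No member had groups apart in smooth muscle (0 of 78) or fibroblasts (0 of 79), where 5.72 and 5.79% of all genes did.

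Other members with small p in endothelium belonged to both subunits. Rpl37a, a zinc-binding large-subunit protein, stood at 847, 1117, 956 and 1293 CPM in knockout libraries, against 608, 844 and 852 CPM in flox libraries. Flox library 3 lay above knockout library 1 (log2 fold change 0.46, SE 0.23, edgeR adjusted p = 0.735). Rps15a, a small-subunit protein whose start carries the tract shown above, stood at 614, 691, 808 and 1118 CPM in knockout libraries, against 525, 527 and 695 CPM in flox libraries. Its highest value was again in knockout library 4, and flox library 3 lay above knockout libraries 1 and 2 (0.48, SE 0.25, edgeR adjusted p = 0.735). Of the endothelial members 1, Rps16, had groups that did not overlap, where 8.18% of all genes had none. This small-subunit protein, named after its values were seen, stood at 1264, 1246, 1360 and 1782 CPM in knockout libraries, against 968, 1153 and 1227 CPM in flox libraries. The other members chosen for their p were Rpl32, Rpl37 and Rpl27a in endothelium (log2 fold changes 0.46 to 0.51), Rpl27a, Rpl24, Rpl37, Rpl35a and Rps28 in smooth muscle (0.26 to 0.31), Rpl37, Rpl35a, Rpl27a, Rpl37a and Rpl13a in fibroblasts (0.22 to 0.36), and Rpl41, Rpl27a, Rpl37a, Rpl13a and Rpl22 in macrophages (0.22 to 0.32). None passed the edgeR test.

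Whether the genotype acted differently on endothelium and smooth muscle was tested as an interaction. No member and 0.0% of 10901 genes passed. The endothelial fold change was the larger in 74 of 78 members (median difference 0.16 log2, against 0.02 over all genes), where 52.7% of all genes had the larger one in endothelium. An unadjusted p under 0.05 was seen for 1 member, Rps27l (0.50, SE 0.21, edgeR adjusted p = 1.0), and for 3.57% of all genes. Without knockout library 4 and flox library 3 the median was 0.04.

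Between cell classes the same genes differed clearly. Each class was set against the mean of the other 3, with library as a block, and 78 members were tested. In endothelium 62 members rose and 1 fell, where 24.8 and 27.5% of 12817 genes did. In smooth muscle 53 rose and 6 fell (40.5 and 36.6% of genes), in fibroblasts 2 rose and 50 fell (35.7 and 33.7%), and in macrophages 3 rose and 62 fell (35.0 and 44.0%). Median log2 differences were 0.27, 0.20, -0.21 and -0.27 for the members, against -0.05, 0.04, -0.00 and -0.16 for all genes. Without knockout library 4 and flox library 3, 33 rose and 3 fell in endothelium, 53 and 3 in smooth muscle, 2 and 39 in fibroblasts and 5 and 53 in macrophages, and the endothelial member median was 0.14 against -0.14 over all genes. These counts also depend on the scaling: with library totals and no TMM factor, 76 members rose and 0 fell in endothelium, 24 rose and 16 fell in smooth muscle, 1 rose and 61 fell in fibroblasts, and 1 rose and 67 fell in macrophages, and the all-gene medians moved to 0.21, -0.12, -0.02 and -0.24. Relative to the all-gene median, the members stood at 0.32, 0.16, -0.21 and -0.11 with TMM and at 0.34, 0.15, -0.21 and -0.12 without it, so changes named below are best read against those medians.

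**Figure D4:**
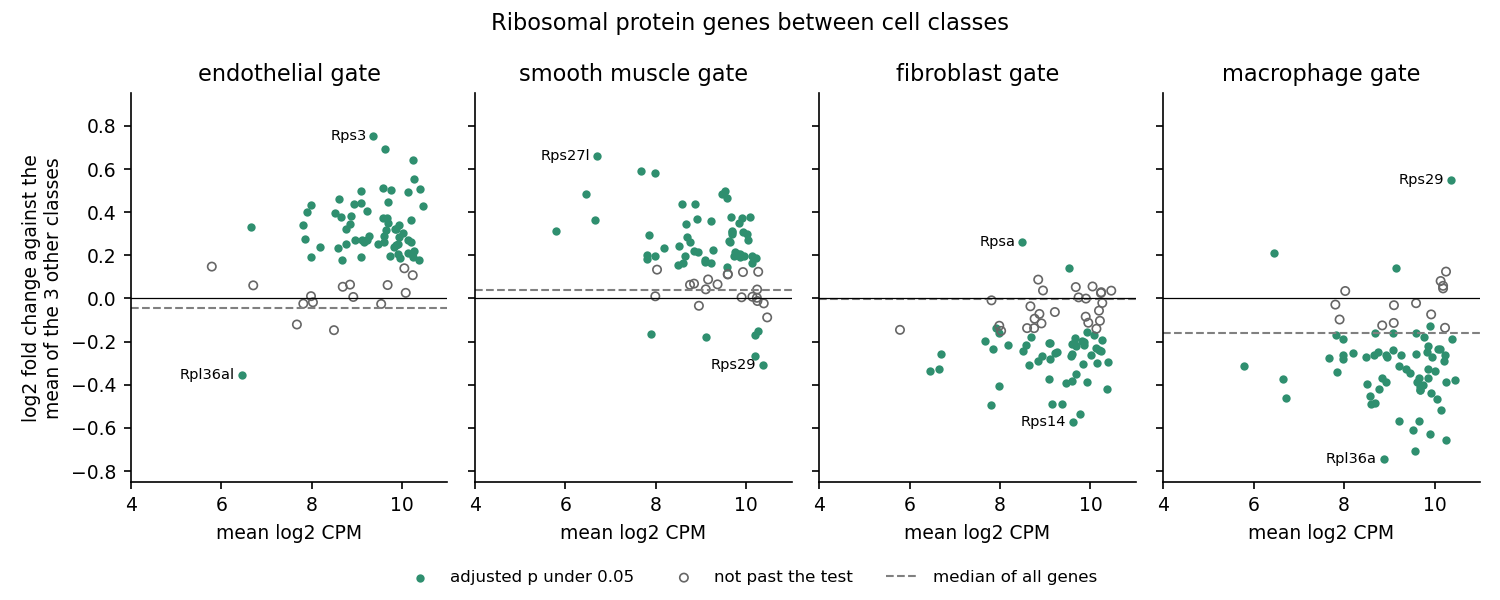
Log2 difference of each class from the mean of the other 3 (vertical axis) against the mean log2 CPM (horizontal axis) for the 78 members tested, 1 panel per class, with filled points where the edgeR test was passed, open points elsewhere and a dashed line at the all-gene median. Most members lie above 0 in endothelium and smooth muscle and below 0 in fibroblasts and macrophages, and Rps29 lies apart above the other members in macrophages at 0.55.

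The endothelial rise was led by small-subunit genes: 28 of 31 rose and 0 fell, against 34 of 47 large-subunit genes that rose and 1 that fell, the paralog Rpl36al (-0.36, SE 0.09, edgeR adjusted p = 0.0029). Rps3 (chr7:99477896-99483738), whose product lines the mRNA entry channel, had a lowest, median and highest value of 654, 988 and 1351 CPM over the 7 endothelial sums. The same 3 values were 483, 671 and 863 CPM in smooth muscle, 370, 507 and 652 CPM in fibroblasts and 432, 505 and 654 CPM in macrophages. The endothelial value was the highest of the 4 classes in 7 of 7 libraries (log2 difference 0.75, SE 0.06, edgeR adjusted p = 1.2e-10). Rps14, a neighbour of the mRNA exit channel that is lost in a human form of myelodysplasia, was next, at 722, 1079 and 1469 CPM in endothelium, against 612, 858 and 1129 CPM in smooth muscle, 403, 581 and 699 CPM in fibroblasts and 446, 653 and 767 CPM in macrophages. Endothelium was the higher of the first 2 classes in 6 of 7 libraries (0.69, SE 0.06). Rps27, a zinc-binding protein of the small subunit, had 820, 1769 and 2811 CPM in endothelium, against 711, 1276 and 1442 CPM in smooth muscle, with fibroblasts and macrophages lower still (0.64, SE 0.07). Rps20 (0.56), Rps21 (0.51) and Rps24 (0.51) followed.

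Small-subunit genes took a larger part of the family's UMIs in endothelium than in smooth muscle. They made up 49.7 ± 0.670% of member UMIs in endothelial sums (48.8 to 50.5% over 7 libraries), 46.7 ± 0.491% in smooth muscle (45.8 to 47.3%), 48.1 ± 0.478% in fibroblasts and 48.9 ± 0.626% in macrophages. The endothelial and smooth muscle ranges did not overlap. No test was run on this share.

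Smooth muscle rose most in a different set. Rps27l (chr9:66946086-66949516) had 92.6, 154 and 175 CPM (lowest, median and highest of 7) in smooth muscle, against 49.1, 123 and 130 CPM in endothelium, 56.3, 96.0 and 114 CPM in fibroblasts and 57.5, 82.7 and 107 CPM in macrophages. With TMM factors, smooth muscle had the highest value in 7 of 7 libraries (log2 difference 0.66, SE 0.07, edgeR adjusted p = 7.3e-09). Its order against endothelium rests on that factor. Without it, endothelium was the higher in knockout libraries 1 (156 against 146 CPM), 2 (146 against 135 CPM) and 3 (137 against 122 CPM). Smooth muscle was the higher in knockout library 4 and all flox libraries, and the summed levels were 125 CPM in smooth muscle and 123 CPM in endothelium. Rpl10a, the protein of the large subunit's L1 stalk, had 188, 265 and 364 CPM in smooth muscle, against medians of 175, 168 and 150 CPM in endothelium, fibroblasts and macrophages (0.59, SE 0.06). Rpl27 (0.58), Rps2 (0.50), Rpl37a (0.48) and Rpl36al (0.48) also rose. Rps29 (-0.31), Rps28 (-0.27), Rps13 (-0.17), Rpl11 (-0.16) and Rpl23 (-0.15) were among those that fell in smooth muscle. With 1 library left out at a time, the call of Rpl23 was lost in 5 of 7 fits. The calls of Rps13 and Rpl11 were each lost in 1 of 7. Rpl11, which binds Mdm2 when ribosome assembly fails, was thus among the few that moved against the class.

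Fibroblasts were below the mean of the other classes for most members. Among the largest falls were Rps14 (-0.57), Rpl34 (-0.53), Rpl29 (-0.50), Rps3 (-0.49) and Rps29 (-0.42). The 2 that rose were Rpsa, the small-subunit protein also known as a laminin receptor, and Rps2, a protein of the decoding region. Rpsa had 357, 392 and 526 CPM in fibroblasts, against 218, 342 and 406 CPM in endothelium, 336, 371 and 492 CPM in smooth muscle and 263, 300 and 371 CPM in macrophages. Fibroblast and smooth muscle values overlapped widely (log2 difference 0.26, SE 0.07, edgeR adjusted p = 0.0013). Rps2 rose by 0.14 (SE 0.06, edgeR adjusted p = 0.043), and this call was lost without knockout library 2 or 3 or any 1 of the 3 flox libraries.

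In macrophages 1 gene moved far against the family. Rps29 (chr12:69157722-69159186), a short zinc-binding protein of the small subunit, had 1198, 1527 and 2646 CPM in macrophages, against 827, 1304 and 2536 CPM in endothelium, 704, 1006 and 1519 CPM in smooth muscle and 685, 933 and 1596 CPM in fibroblasts. Macrophages were above smooth muscle and fibroblasts in 7 of 7 libraries and above endothelium in 6 of 7 (log2 difference 0.55, SE 0.07, edgeR adjusted p = 9.6e-08). Rpl36al (0.21) also rose. At the other end, Rpl36a, at the large subunit's tRNA exit site, had 227, 321 and 366 CPM in macrophages, against 344, 569 and 884 CPM in endothelium, 410, 584 and 665 CPM in smooth muscle and 301, 454 and 527 CPM in fibroblasts (-0.75, SE 0.07). Rps21 (-0.71), Rps20 (-0.66), Rpl41 (-0.63), Rps2 (-0.61) and Rpl31 (-0.57) fell as well.

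Of the stalk genes, Rplp2 rose in endothelium (log2 difference 0.27, edgeR adjusted p = 0.0012) and Rplp0 in smooth muscle (0.22, edgeR adjusted p = 0.0011). Rplp2 fell in fibroblasts (-0.28) and Rplp0 in macrophages (-0.37), and Rplp1 passed in none of the 4 classes. Rpsa rose in smooth muscle by 0.16 (edgeR adjusted p = 0.040), a call lost without knockout library 1 or 2 or any 1 of the 3 flox libraries, and the value became -0.01 without the TMM factor.

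The share of a paralog within its own pair does not depend on how a library is scaled. Rps27l made up 10.9 ± 0.407% of the UMIs of Rps27 and Rps27l together in smooth muscle, 7.93 ± 1.07% in fibroblasts, 7.67 ± 1.82% in macrophages and 5.98 ± 1.55% in endothelium (SD, 7 libraries). Smooth muscle exceeded fibroblasts by 2.99 points and macrophages by 3.25 points, and endothelium minus smooth muscle came to -4.93 points, each in 7 of 7 libraries (exact two-sided sign-flip test, p = 0.0156, adjusted over 12 differences 0.0234). Endothelium minus fibroblasts came to -1.94 points (exact test, adjusted p = 0.0234) and endothelium minus macrophages to -1.68 points (exact test, adjusted p = 0.0375, lost on leaving out any 1 library other than flox library 3), while fibroblasts and macrophages differed by 0.260 points (exact test, adjusted p = 0.609).

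Rpl36al was ordered differently. It made up 23.6 ± 2.97% of the UMIs of Rpl36a and Rpl36al in macrophages, 16.1 ± 1.18% in smooth muscle, 14.01 ± 1.15% in fibroblasts and 11.5 ± 3.34% in endothelium. The difference from macrophages was -12.2 points in endothelium, -7.52 points in smooth muscle and -9.63 points in fibroblasts, and smooth muscle was 2.11 points above fibroblasts (exact sign-flip tests, each adjusted p = 0.0234). Endothelium minus smooth muscle was -4.65 points (exact test, adjusted p = 0.0375, again lost on leaving out any 1 library other than flox library 3) and endothelium minus fibroblasts -2.54 points (exact test, adjusted p = 0.102). The 2 proteins differ little and their mRNAs are similar, so reads could be split between them in counting. In all, 10 of 12 differences passed, and all 10 kept their sign without knockout library 4 and flox library 3, where the smallest exact p is 0.0625.

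**Figure D5:**
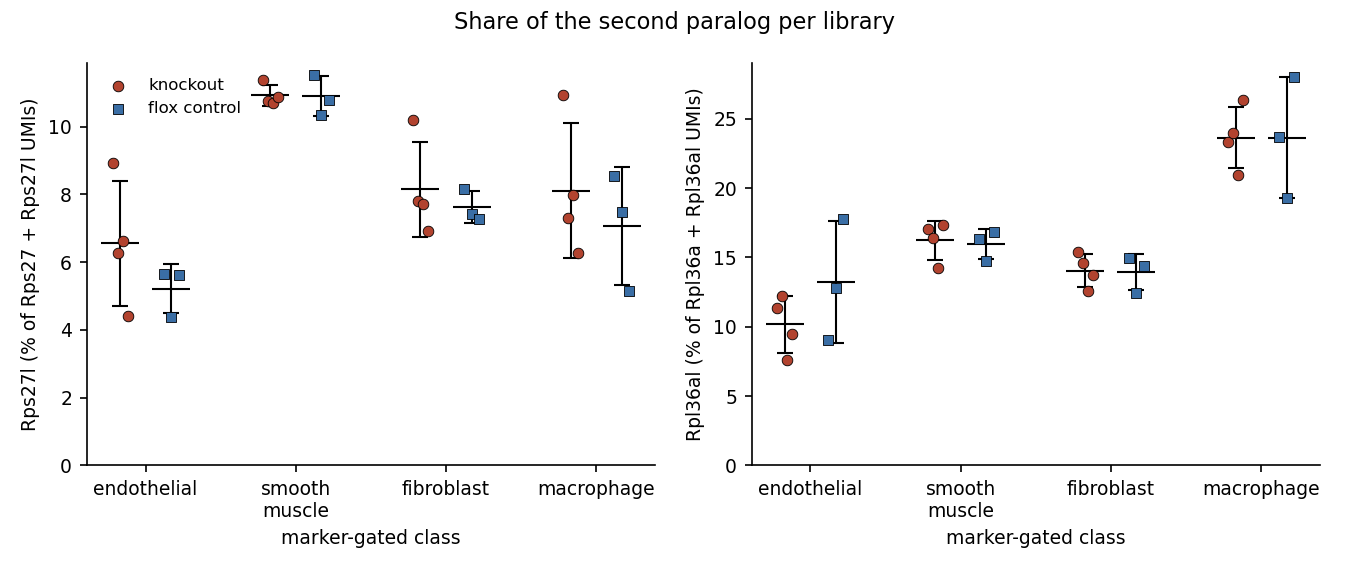
Share of Rps27l within Rps27 and Rps27l (left panel) and of Rpl36al within Rpl36a and Rpl36al (right panel), in percent of the pair's UMIs, by cell class, 1 point per library with knockout points left of flox points, and the mean and SD as a line and bar. Smooth muscle holds the highest Rps27l shares, at a mean of 10.9%, and macrophages the highest Rpl36al shares, at a mean of 23.6%.

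The muscle paralog Rpl3l (chr17:24727820-24736143), which replaces Rpl3 (chr15:80077791-80091868) in mature skeletal and cardiac muscle, was almost absent. It had 3 UMIs in endothelium, 23 in smooth muscle, 78 in fibroblasts and 4 in macrophages, where Rpl3 had 3153, 34885, 68082 and 6234. In kept barcodes its 136 UMIs were spread over 124 barcodes with at most 3 in 1, and none of those barcodes had 3 or more of 8 skeletal or of 8 cardiac muscle markers. Fibroblasts held 75 of the 124 barcodes and smooth muscle 17. Its level over summed UMIs was 0.249 CPM in smooth muscle, 0.366 CPM in fibroblasts and 0.571 CPM in endothelium, the last from 3 UMIs.

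Rpl39l, a paralog known from mouse testis, had 8, 32, 38 and 13 UMIs in endothelium, smooth muscle, fibroblasts and macrophages, where Rpl39 had 7714, 94887, 218255 and 15085. Rpl10l, a testis paralog of Rpl10, had 0 UMIs in every class, which allows up to 0.571 CPM in endothelium, 0.0324 CPM in smooth muscle, 0.0141 CPM in fibroblasts and 0.155 CPM in macrophages (3 counts of the total, counting error only). Rps4l was not analysed here. Some processed pseudogenes had counts of their own, of which Rpl10-ps3 with 7660 UMIs (Rpl10 had 83371) was the largest relative to its parent. Rpl36a-ps1 with 1925 (Rpl36a had 159895) and Rpl9-ps6 with 2535 (Rpl9 had 255242) followed. By this measure Rpl10 is the least certain of the members with a counted pseudogene. Members without a pseudogene entry in the files could not be judged this way.

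Barcodes with almost no mitochondrial RNA were examined in the smooth muscle gate, where 336 had under 1%. Such barcodes resemble nuclei, and ribosomal protein mRNAs are cytoplasmic. Knockout library 3 had 69 of them, flox library 1 had 139 and flox library 2 had 85, and only these 3 libraries reached 20. Ribosomal protein genes supplied 1.21% of the non-mitochondrial UMIs of nucleus-like barcodes and 5.79% of the others in knockout library 3, 0.561% and 5.12% in flox library 1, and 0.528% and 5.22% in flox library 2. The difference averaged -4.61 points and was negative in 3 of 3 libraries (exact sign-flip test, p = 0.25, the smallest 3 libraries can give). The smaller sets pointed the same way, with 2.03% and 6.31% in knockout library 1, 2.15% and 6.30% in knockout library 2 and 1.30% and 7.68% in flox library 3, except for the 5 barcodes of knockout library 4, at 6.69% and 7.46%. Malat1, a long RNA retained in the nucleus, supplied 1.97, 2.61 and 2.16% of the nucleus-like UMIs in the 3 larger sets, against 0.366, 0.558 and 0.464% of the others. Nucleus-like barcodes were also shallow, with medians of 648, 674 and 694 UMIs against 5236, 3681.5 and 4030, and the part of depth in the difference was not tested.

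Every member tested was lower in the nucleus-like sums. edgeR, with library as a block, called 78 of 78 lower, where 19.9% of 11423 genes were called lower, at a median log2 difference of -3.53 against -0.73 over all genes. The filter could be passed on the other barcodes alone, so the count describes the loss and does not test it for the family. Without TMM factors the medians were -2.92 and -0.15. Counts were low: over the 3 libraries the members had a median of 18 UMIs in nucleus-like barcodes, and the most counted were Rpl41 with 47, Rps12 with 44 and Rps24 with 42. Rpl3l, Rpl39l and Rpl10l had 0 there and were not tested.

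Rps19 (chr7:24884371-24889806), the small-subunit protein most often mutated in human Diamond-Blackfan anaemia, had 0 UMIs in nucleus-like barcodes of knockout library 3, 1 in flox library 1 and 0 in flox library 2, against 6142, 2601 and 1942 in the other barcodes. Rpl36, a large-subunit protein, had 0, 1 and 0 UMIs in the same libraries, against 2660, 1312 and 1119. At such counts a fitted fold depends on the prior count and is not given. Rps3 had 3, 1 and 2 UMIs, against 15102, 6721 and 5687 (log2 difference -4.93, SE 0.46). Rpl10, which loads late and lies near the peptidyl transferase centre, was the least reduced, with 8, 7 and 6 UMIs against 6933, 2761 and 2153 (-1.86, SE 0.39), and Rps27l followed with 3, 2 and 2 UMIs against 3619, 1286 and 1148 (-2.46).

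Fibroblast barcodes under 1% mitochondrial were examined in the same way. There were 103, and only flox library 1 (24 barcodes) and flox library 2 (26) reached 20. The ribosomal share was 3.94% in nucleus-like and 3.96% in other barcodes of flox library 1, and 2.32% and 4.10% in flox library 2. The mean difference of -0.903 points rests on the second of these (exact p = 0.5, the smallest 2 libraries can give). Malat1 supplied 1.01 and 1.06% of the nucleus-like UMIs, against 0.390 and 0.427% of the others. edgeR called 1 member lower, Rps28 (-1.59, edgeR adjusted p = 0.024), where 0.36% of 13346 genes were, and the median log2 difference was -0.99 for the members and -0.92 for all genes. The smaller sets, of 2 to 16 barcodes, did not point one way: nucleus-like barcodes had 6.77% and the others 4.98% in knockout library 1, 7.22% and 5.01% in knockout library 2, 5.33% and 4.90% in knockout library 3, 5.21% and 6.36% in knockout library 4, and 1.45% and 5.78% in flox library 3.

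The remaining genes of the translation machinery did not all follow the ribosomal proteins. The 6 ribosomal genes outside the rule did in part: 3 rose and 0 fell in endothelium, and 1 rose and 5 fell in fibroblasts (Fau, a ubiquitin-like protein fused to a small-subunit protein, fell by 0.58). In macrophages 2 rose and 3 fell, with Fau up by 0.51. Of 16 other TOP mRNAs, 5 rose and 3 fell in endothelium, 10 rose and 3 fell in smooth muscle, 1 rose and 6 fell in fibroblasts and 3 rose and 9 fell in macrophages. The shares of all genes that rose and fell were the 24.8 and 27.5% in endothelium, 40.5 and 36.6% in smooth muscle, 35.7 and 33.7% in fibroblasts and 35.0 and 44.0% in macrophages given above, so the endothelial count lies near the background. Naca, a chaperone of nascent chains, rose by 0.83 in smooth muscle, Tpt1, a growth-related TOP mRNA, by 0.50 in endothelium and Pabpc1, the poly(A)-binding protein, by 0.86 in macrophages (log2, edgeR).

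Ribosome biogenesis factors were counted against the same background. Of 28 genes of the list, 15 rose and 5 fell in macrophages, where 35.0 and 44.0% of all genes did, while 3 of 78 ribosomal proteins rose and 62 fell. Noc2l, a nucleolar assembly factor, rose by 1.81 and Gnl3, a nucleolar GTPase, by 1.40 in macrophages. In endothelium 2 of the 28 rose and 8 fell (Gnl3 fell by 1.00), where 24.8 and 27.5% of all genes did, so the fall is near the background. In smooth muscle 7 rose and 12 fell, where 40.5 and 36.6% of all genes did. In fibroblasts 9 rose and 6 fell, where 35.7 and 33.7% of all genes did. The fall in smooth muscle and the rise in fibroblasts are thus near the background. Nop58, a core protein of box C/D particles, stood at -1.40 in smooth muscle and 1.38 in fibroblasts. Nuclear-encoded mitochondrial ribosomal proteins rose for 71 of 77 genes in smooth muscle (median 0.62) and 13 of 13 mitochondrially encoded genes rose there (median 1.66). In endothelium 8 of the 77 rose and 9 fell, fewer in each direction than the shares of all genes.

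In the nucleus-like smooth muscle sums, 6 of 6 ribosomal genes outside the rule and 15 of 16 other TOP mRNAs were called lower (medians -3.21 and -2.74), with Eef1a1, the elongation factor, at -3.37. Of the biogenesis factors 5 of 28 were called lower (median -1.20), and of the mitochondrial ribosomal proteins 35 of 77 (median -2.59). All genes were called lower at 19.9%, so the count of biogenesis factors lies near the background. Between the genotypes edgeR called 0 genes of these lists in any class. The mitochondrial ribosomal list had positive fold changes for 49 of 61 genes in endothelium (median 0.29), and the 16 other TOP mRNAs for 14 in endothelium (median 0.21) and 6 in macrophages (median -0.04).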

How the data were processed

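The values are UMI counts per gene and barcode, deposited as sparse matrices and, per the submitters' processing notes, made with CASAVA 1.8, STARsolo 2.7.10a and Seurat on mm10. The files start at 500 UMIs per barcode in every library. The labels do not say how reads matching several genes, or the strand, were handled, so counts of genes with near-identical copies are uncertain.

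Barcodes with at least 200 genes and at most 25% mitochondrial UMIs were kept, and doublets called by Scrublet (scanpy 1.11.5, expected rate 0.06) were removed, 0.869 to 2.07% of each library. A barcode entered a class with at least 3 of that class's markers and 2 more than of any other class. The marker lists were written with the design and this scoring rule after the files were seen. At the cut lay 3685 gated barcodes (6.06%), and 6703 kept barcodes (9.93%, median 693 UMIs) met no gate. No ribosomal gene was used in a gate. Nucleus-like means under 1% mitochondrial UMIs, with shares taken of the other UMIs.

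Counts were summed per library and class (at least 20 barcodes) and fitted over all genes with edgeR 4.0.16 in R 4.3.3 (TMM, filterByExpr, quasi-likelihood test, Benjamini-Hochberg over all genes, adjusted p of 0.05). CPM is edgeR's, with TMM factors and no log. Genotype fits hold 7 libraries and 1 class, and class fits 28 sums with library as a block. Shares were compared by exact two-sided permutation (35 assignments between genotypes, sign flips within libraries). Named always are the paralog pairs, Rpsa, Rplp0, Rplp1 and Rplp2, and for each comparison the 6 with the largest change in each direction that passed, at a mean of at least 4 log2 CPM, or the 6 with the smallest p where fewer than 6 passed. Some of the fits were tested on simulated counts: genotype in endothelium and in fibroblasts, endothelium against the other classes, the interaction, and nucleus-like smooth muscle. The remaining fits use the same code and were not simulated.

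The members, lists and tests were chosen with earlier results of these data known. Values of some genes chosen by these rules are not reported here. Replicate numbers follow the libraries' names (1 label repeats a number), and same-numbered libraries are not described as paired. Alternatives were DESeq2 1.42.0, no TMM factor, no filter, stricter (at least 1000 UMIs, at most 15% mitochondrial) and looser cell filters or gates, doublets kept, shares taken without mitochondrial genes and Malat1, nucleus-like limits of 0.5 and 2%, each library left out, and knockout library 4 with flox library 3 left out. Start-site windows and promoter motifs are from RefSeq (GRCm38.p6), gene spans from GENCODE vM21.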

Additional observations from a re-analysis of the deposited data

Results flagged for a closer look

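Of 36 groups of 4 knockout libraries tested for a library far from the others, 5 had one, where chance gives about 1 in 20 independent groups. The groups here hold the same 4 libraries and related values, so they are not independent and that rate is no yardstick for the count. Knockout library 4 was the high one for the endothelial ribosomal share (9.90%), for the fibroblast ribosomal share (6.01%), for Rpl32 in endothelium (1039 CPM) and for Rpl27a in smooth muscle (1058 CPM). Knockout library 1 was the high one for Rps27l in macrophages (106 CPM). In each case the gap to the next library took a larger part of the group's range than Dixon's 95% critical value. The 3 flox libraries are too few for this check.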

How the results depend on the processing

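Of 284 share differences under alternatives 255 kept their direction and side of the threshold, 25 no longer passed and 4 turned, of 294 counts of called members 265 stayed within 1.5 times, and of 1437 fold changes of named members 1379 were unchanged in call, 56 no longer passed and 2 turned. Without knockout library 4 and flox library 3 the class differences in share were 1.61 (endothelium minus smooth muscle), 2.10 (minus fibroblasts), 2.33 (minus macrophages), 0.490 and 0.715 (smooth muscle minus fibroblasts and minus macrophages) and 0.225 points (fibroblasts minus macrophages), with exact adjusted p of 0.075, and 0.125 for the last. Smooth muscle minus fibroblasts was 0.287 points under the stricter cell filter (exact adjusted p = 0.078). The nucleus-like fibroblast difference became 0.132 points with the limit at 2%.

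Counts of members moved by more than 1.5 times as follows: endothelium, 33 higher and 3 lower without those 2 libraries and 0 lower without TMM; smooth muscle, 24 higher and 16 lower without TMM, 21 higher and 12 lower under the stricter cell filter, 2 lower without the count filter and 3 lower without those 2 libraries; fibroblasts, 1 higher without TMM, under the stricter gate and with doublets kept, and 32 lower without the count filter; macrophages, 5 higher with DESeq2 and without those 2 libraries, 6 under the stricter cell filter and 1 without the count filter and without TMM. The nucleus-like fibroblast call of 1 fell to 0 with DESeq2, without TMM, at 2% and under the looser gate. Rpsa in smooth muscle became -0.013 without TMM, and Rpl9 in nucleus-like fibroblasts 0.0146 at 2%. The cause of these changes was not tested.

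Leaving out 1 library at a time gave -5.59 to -4.12 points for the Rpl36al share (endothelium minus smooth muscle), -2.04 to -1.45 for Rps27l (endothelium minus macrophages), -0.0516 to 0.427 for Rps27l (fibroblasts minus macrophages), 0.274 to 0.385 for fibroblasts minus macrophages in ribosomal share and -0.0502 to 0.972 for the genotype difference in smooth muscle, negative without flox library 1 and without flox library 2. The calls of Rpl36al (endothelium minus smooth muscle), Rps27l (endothelium minus macrophages) and the ribosomal share (fibroblasts minus macrophages) ended in 6 of 7 cases. Counts ran from 1 to 2 higher in fibroblasts, 1 to 3 lower in endothelium and 3 to 6 lower in smooth muscle.

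With the replicate number as a block, no member was called in any class, and the medians were 0.15, 0.13, 0.17 and 0.05. Same-numbered libraries correlated at -0.04 to 0.17 in endothelium, 0.02 to 0.23 in smooth muscle, -0.01 to 0.28 in fibroblasts and -0.06 to 0.08 in macrophages. With so few libraries these values cannot show whether same-numbered libraries were paired. Of 3 numbers, 1, 2, 2 and 1 had each library closest to its own number. Endothelial sums hold 51 to 466 barcodes and nucleus-like sets 2 to 139, which limits their precision.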
